A study of Mus musculus with 27 samples.

Results

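The genes described here are Atat1, which encodes the acetyltransferase that modifies alpha-tubulin, and 9 tubulin genes measured in mouse embryonic stem cells. The alpha-tubulin genes were Tuba1a, Tuba1b and Tuba1c (3), and the beta-tubulin genes were Tubb2a, Tubb2b, Tubb3, Tubb4b, Tubb5 and Tubb6 (6). These 10 genes, of 53379 in the deposited table, were taken by their symbols. They had been chosen by measured values of the same libraries, the TPM of the genes across treatments and fractions. The p-values, adjusted p-values and counts of these genes below therefore describe these libraries and are not independent evidence. All 10 genes passed the filter on low values.

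The cells were E14, an embryonic stem cell line of the mouse, grown on gelatin in medium with LIF, which holds them undifferentiated. The treatments were siRNA against Ptbp1 (siPTBP1), siRNA against Ptbp1 together with Ptbp2 (siPTBP1_PTBP2, the double knockdown), and siRNA against eGFP (siGFP), a sequence that serves as the negative control. All cells, the controls included, were thus transfected, at plating and again at 24 h, and were fractionated at 48 h into cytoplasm (CY), nucleoplasm (NP) and chromatin (CH). Each of the 9 combinations of treatment and fraction had 3 libraries of poly(A)-selected RNA, 27 in all, which the series calls biological replicates. The series was made to study introns that PTBP1 keeps in or out of the transcripts of these cells.

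Microtubules are polymers of a heterodimer of alpha- and beta-tubulin, each of which mammals encode in several genes with similar coding sequences. ATAT1 acetylates a lysine of alpha-tubulin inside the microtubule, a mark of long-lived microtubules that is abundant in axons and cilia. PTBP1 binds pyrimidine-rich RNA and represses many exons that neurons use and the removal of some introns, and transcripts that keep an intron are often held in the nucleus. Tubulin mRNA is itself controlled in the cytoplasm, where free tubulin triggers the decay of tubulin mRNA during translation.

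Atat1 (ENSMUSG00000024426) lies on the minus strand at chr17:35897595-35910075 (mm10), and GENCODE M21 lists 16 transcripts for it, of which 7 are protein-coding and 5 are of the retained-intron class. Such transcripts keep 2 introns of the longest coding transcript whole. Both are shown because the series concerns PTBP1 and retained introns, with the pyrimidine motifs TCTT and TCTCT in capitals. The motifs can overlap each other, and neither was found on the opposite strand of these introns.
Atat1 intron 5, chr17:35908665-35908852, minus strand: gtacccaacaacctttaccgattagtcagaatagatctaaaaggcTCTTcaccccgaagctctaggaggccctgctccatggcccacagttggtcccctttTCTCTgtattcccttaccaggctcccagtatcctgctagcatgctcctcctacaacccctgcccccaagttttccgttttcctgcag
Atat1 intron 3, chr17:35909149-35909258, minus strand: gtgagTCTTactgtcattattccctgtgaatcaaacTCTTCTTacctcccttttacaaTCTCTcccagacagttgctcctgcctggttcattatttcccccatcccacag

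Intron 5 is 188 bases long and 63.3% of its bases are C or T, against a median of 52.5% for the 555 annotated retained introns of other genes whose length was within 10% of it. It holds TCTT at 1 position, as do 67.9% of those introns in at least 1 position, and TCTCT at 1, which 34.6% of them hold. Intron 3 is 110 bases long with 69.1% C or T, against a median of 51.9% for 618 introns of like length. It holds TCTT at 3 positions, a motif found in 48.7% of those introns and in as many copies in 5.34%, and TCTCT at 1, found in 25.4%. Of the tubulins, Tuba1b and Tubb5 have 1 annotated retained intron each. That of Tuba1b, of 132 bases with 56.1% C or T, against a median of 52.2% for introns of like length, also holds TCTT and TCTCT, at 2 positions each. That of Tubb5, of 354 bases with 56.8% C or T, holds neither on its own strand, and 88.3% and 60.9% of introns of like length hold them. The motifs are thus not particular to the introns of Atat1. Such letters are a description of the introns and not binding sites, and the gene-level values used here do not separate spliced from intron-retaining transcripts.

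The ends of the coding sequences of Tubb2a and Tubb2b, neighbouring beta-tubulin genes, are shown because they bear on how well reads could be assigned. Each line gives the last 60 bases with the stop codon, with capitals at the positions where the genes differ.
Tubb2a: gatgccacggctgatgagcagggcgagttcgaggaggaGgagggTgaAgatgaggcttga
Tubb2b: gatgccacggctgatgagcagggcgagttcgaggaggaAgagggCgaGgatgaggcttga
Tubb2a and Tubb2b differed at 3 of these 60 positions.

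Over the whole coding sequence the alpha-tubulin genes shared 97.1% to 98.3% of their bases (3 pairs), the beta-tubulins 80.2% to 96.5% (15 pairs), and an alpha and a beta 52.6% to 55.4% (18 pairs). Of all stretches of 31 bases in the transcripts of a gene, 99.9% were found in no other gene for Atat1, 96.8% for Tubb3, 96.5% for Tubb5 and 96.8% for Tubb6. That share was 23.0% for Tuba1a, 31.1% for Tuba1b, 44.7% for Tuba1c, 43.6% for Tubb2a and 56.9% for Tubb2b. It was 51.4% for Tubb4b, which shares 41.0% of its stretches with the pseudogene Tubb4b-ps1. The split of reads among Tuba1a, Tuba1b and Tuba1c, between Tubb2a and Tubb2b, and between Tubb4b and its pseudogene is therefore uncertain, whereas the values of Atat1, Tubb3, Tubb5 and Tubb6 rest mostly on sequence of their own.

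The values are TPM, transcript abundance scaled to transcript length and to a fixed library total, so levels of different genes may be compared within a library. Read depth cannot be recovered from TPM, and values are given without counting intervals. The libraries had between 11837 and 19509 genes at 1 TPM or more. Ptbp1 averaged 123 ± 18.1 TPM in siPTBP1 cytoplasm, 142 ± 50.1 in double knockdown cytoplasm and 549 ± 56.2 in siGFP cytoplasm (SD, n = 3 each), and Ptbp2 averaged 13.9 ± 8.99, 5.43 ± 3.45 and 11.3 ± 6.76 TPM in the same groups. On chromatin Ptbp1 averaged 243 ± 50.7, 287 ± 61.8 and 514 ± 156 TPM and Ptbp2 57.5 ± 29.6, 54.9 ± 27.3 and 67.5 ± 38.7 TPM, in the same order. The gene-level difference of Ptbp1 was thus smaller there. The Ptbp2 levels of the treatments overlapped in both fractions. In the cytoplasm they were 3.51 to 19.2 TPM in siPTBP1, 1.45 to 7.55 in the double knockdown and 3.52 to 15.45 in siGFP. The 8 embryonic stem cell markers fixed for this check were above 0 in every group, and their summed level in the cytoplasm was 3223 to 3723 TPM in siPTBP1, 3327 to 3721 in the double knockdown and 4074 to 4342 in siGFP. The knockdown sums did not overlap with those of siGFP. Without the replicate block described below no marker of the 8 passed limma's threshold in the cytoplasm, and with it 3 were called lower in the double knockdown, namely Nanog at 77.8 ± 41.5 TPM against 138 ± 28.4 in siGFP (adjusted p = 0.0385), Zfp42 at 197 ± 112 against 376 ± 169 (0.00274) and Klf4 at 6.48 ± 2.71 against 12.7 ± 4.402 (0.0136). That comparison called 2.65% of all genes with the block. In the nucleoplasm the block called 1 of the 8 markers lower in each knockdown, against 1.88% of all genes for siPTBP1 and 1.84% for the double knockdown. The part of these markers in the results below was not tested.

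Atat1 was higher in the cytoplasm of both knockdowns than in siGFP cytoplasm, and no tubulin passed the test. Its cytoplasmic level was 14.3, 22.3 and 16.9 TPM in siPTBP1 replicates 1 to 3 and 14.5, 20.95 and 15.7 TPM in the double knockdown, against 4.33, 6.37 and 4.07 TPM in siGFP. Every knockdown library stood above every siGFP library, and replicate 2 was the highest of its group under each treatment. The means were 17.9 ± 4.07 TPM in siPTBP1, 17.0 ± 3.43 in the double knockdown and 4.92 ± 1.26 in siGFP (SD, n = 3 each).

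The cytoplasmic mean of Atat1 was 3.63 times the siGFP mean in siPTBP1 and 3.46 times in the double knockdown. On the scale of log2(TPM + 1), where changes of low genes come out smaller, the difference from siGFP was 1.67 for siPTBP1 (SE 0.29, 95% interval 1.06 to 2.27, limma adjusted p = 0.00948 over 20611 genes). The double knockdown differed by 1.61 (SE 0.29, interval 1.01 to 2.21, limma adjusted p = 0.0113). Pairing libraries by replicate number gave folds over siGFP of 3.31, 3.50 and 4.16 in siPTBP1 and of 3.35, 3.29 and 3.85 in the double knockdown, so the rise was of similar size within each number.

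In the fit without the replicate block, which ignores the pairing by number, the call in the cytoplasm was lost in several alternatives. For siPTBP1 the adjusted p was 0.111 when the model was fitted to the cytoplasmic libraries alone, 0.107 without siPTBP1 replicate 2, 0.0502 without siPTBP1 replicate 3, 0.0682 without siGFP replicate 1, 0.0789 without siGFP replicate 3 and 0.114 without the replicate 1 libraries of all groups. For the double knockdown it was 0.114 in the cytoplasmic libraries alone, 0.0918 without double knockdown replicate 2, 0.0784 without siGFP replicate 1, 0.0923 without siGFP replicate 3 and 0.144 without all replicate 1 libraries. The difference itself stayed between 1.505 and 1.84 for siPTBP1 and between 1.46 and 1.78 for the double knockdown over all 12 alternatives. With the replicate number as a block the adjusted p was 9.89e-06 and 1.07e-05 (limma). Libraries were not left out of the fit with the block, so its dependence on single libraries was not tested.

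In these bulk libraries a higher share of cells with the transcript cannot be told apart from more transcript per cell, and each p-value reflects only the spread among the sequenced libraries. The summed level of 12 neuron markers in the cytoplasm was 119.9 to 210 TPM in siPTBP1, 68.1 to 193 in the double knockdown and 109.8 to 182 in siGFP, so it overlapped among the treatments, and none of the 12 was at 0 in a whole group. The 5 neural progenitor markers summed to 28.8 to 45.8, 31.6 to 48.4 and 17.5 to 29.4 TPM in the same order of groups. The double knockdown sums thus lay above every siGFP sum, and those of siPTBP1 overlapped with siGFP. The median log2 difference of these markers from siGFP was 0.84 in siPTBP1 and 0.72 in the double knockdown, beside all-gene medians of 0.06 and 0. In the same order 6 fibroblast markers summed to 7.45 to 14.7, 9.21 to 18.7 and 10.4 to 15.6 TPM, with Lum at 0 in all 3 groups. No neuron or progenitor marker passed limma's threshold in the cytoplasm without the block; with it Rbfox3, Sox1 and Sox3 were called higher in both knockdowns. The block called 1.83% of all genes in siPTBP1 cytoplasm and 2.65% in double knockdown cytoplasm. On chromatin it called 2 neuron markers and 1 progenitor marker higher in each knockdown, against 2.45% and 2.12% of all genes. The part of these markers in the Atat1 result was not tested.

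**Figure D1:**
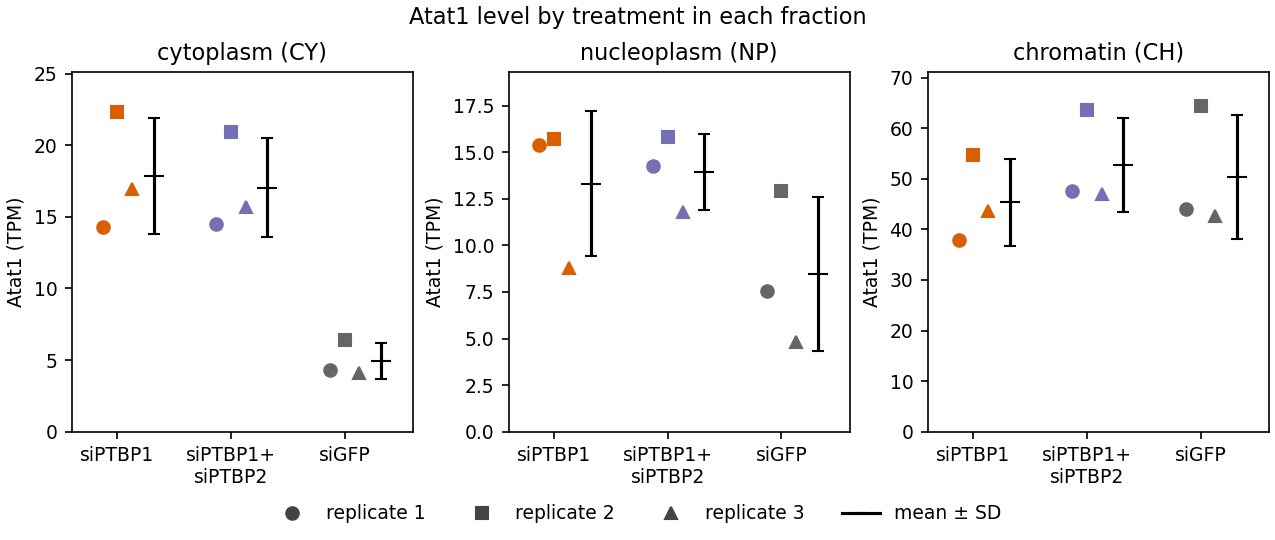
Atat1 level in TPM (vertical axes from 0, with a different range in each panel) in the cytoplasm, nucleoplasm and chromatin for siPTBP1, siPTBP1+siPTBP2 and siGFP, with a marker per library by replicate number and a bar for the mean ± SD of 3. In the cytoplasm the knockdown libraries at 14.3 to 22.3 TPM lie above the siGFP libraries at 4.07 to 6.37 TPM, whereas on chromatin the treatments overlap.

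In the nucleoplasm the treatments overlapped for Atat1. It was at 15.4, 15.7 and 8.81 TPM in siPTBP1 and 14.3, 15.8 and 11.8 TPM in the double knockdown, against 7.57, 12.9 and 4.82 TPM in siGFP. siGFP replicate 2 stood above the lowest library of each knockdown. The log2 difference was 0.65 for siPTBP1 (95% interval 0.05 to 1.26, limma adjusted p = 0.905) and 0.75 for the double knockdown (0.14 to 1.35, limma adjusted p = 0.705). With the replicate block the double knockdown passed the threshold (limma adjusted p = 0.0266) and siPTBP1 did not (0.0545). Mitochondrial genes took 9.31%, 20.2% and 19.3% of the TPM in siPTBP1 nucleoplasm and 15.03%, 22.5% and 19.1% in the double knockdown, against 9.68%, 15.6% and 13.7% in siGFP. Each knockdown library but siPTBP1 replicate 1 was above siGFP of the same number in that share, and its part in the result was not tested.

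On chromatin the Atat1 level was 37.8, 54.7 and 43.5 TPM in siPTBP1 and 47.6, 63.5 and 47.1 TPM in the double knockdown, against 44.0, 64.4 and 42.6 TPM in siGFP. The 3 treatments overlapped, and replicate 2 was again the highest library of each. The log2 difference from siGFP was -0.14 for siPTBP1 (95% interval -0.74 to 0.47) and 0.08 for the double knockdown (-0.53 to 0.68), each with a limma adjusted p of 1. Those intervals lie below the cytoplasmic differences of 1.67 and 1.61, which have intervals of their own. The test of the change between these fractions, which passed only with the replicate block, is given below.

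The level of Atat1 also differed between the fractions of the control cells; TPM is relative to the total of each fraction, so the amount of transcript per fraction is not given. In siGFP, Atat1 averaged 50.3 ± 12.2 TPM on chromatin, 8.44 ± 4.13 in the nucleoplasm and 4.92 ± 1.26 in the cytoplasm (SD, n = 3 each). Chromatin was 10.2 times the cytoplasm (log2 difference 3.11, SE 0.29, limma adjusted p = 1.03e-08) and 5.96 times the nucleoplasm (2.51, adjusted p = 4.92e-07). The chromatin to cytoplasm difference was called under all 12 alternatives, with values from 2.13 under median-ratio scaling to 3.33. The nucleoplasm did not pass against the cytoplasm (0.60, limma adjusted p = 0.224), but did with the replicate block (0.0105).

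The chromatin to cytoplasm ratio of Atat1 within a replicate number was 2.64, 2.45 and 2.57 in siPTBP1 and 3.28, 3.03 and 3.01 in the double knockdown, against 10.2, 10.1 and 10.5 in siGFP. The ratio varied little among replicates, with means of 2.56 ± 0.0942, 3.11 ± 0.151 and 10.2 ± 0.193 (SD, n = 3 each), and the knockdowns did not overlap with siGFP. The change of the chromatin minus cytoplasm difference was -1.81 for siPTBP1 (95% interval -2.66 to -0.95) and -1.53 for the double knockdown (-2.39 to -0.68) on the log2 scale. These did not pass in the fit without the block (limma adjusted p = 0.217 and 0.442), in which libraries of the same number are treated as unrelated. With the replicate block they did (adjusted p = 0.00105 and 0.00302). The change of the nucleoplasm minus cytoplasm difference was -1.02 for siPTBP1 (95% interval -1.87 to -0.16) and -0.87 for the double knockdown (-1.72 to -0.01). It passed in neither fit (limma adjusted p = 0.711 and 0.797 with the block). Of all genes 1 was called for that change in each knockdown, with or without the block.

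Across the 10 genes the change of the chromatin minus cytoplasm difference was called for none without the block. There 0.0437% of all genes were called for siPTBP1 and 0.0582% for the double knockdown. Without the block 1 gene, Atat1, had an unadjusted p under 0.05 in each, as did 532 and 635 of the 20611 genes. With the block Atat1 was called for each knockdown, 1 of 10, against 0.194% and 0.383% of all genes. The 2 knockdowns share their siGFP libraries, so they are not separate support for each other.

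**Figure D2:**
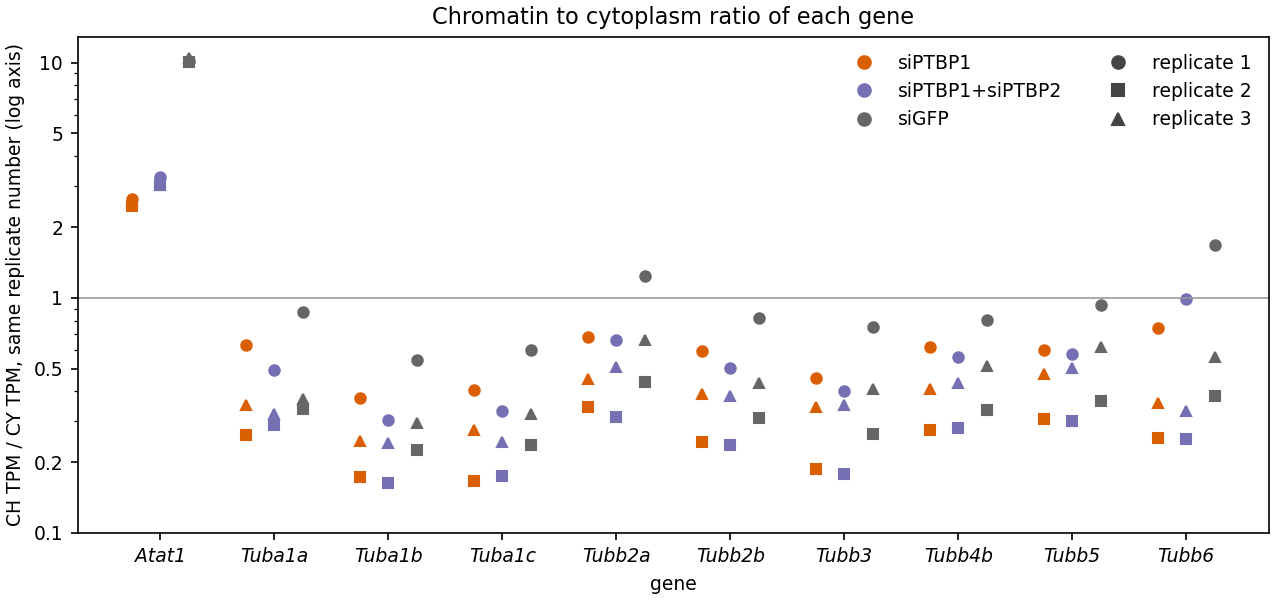
Ratio of chromatin TPM to cytoplasm TPM of the same replicate number (log axis) for each of the 10 genes, coloured by treatment and marked by replicate, with a line at a ratio of 1. Atat1 is at 10.1 to 10.5 in siGFP and at 2.45 to 3.28 in the knockdowns, and the tubulin ratios lie below 1 apart from Tubb2a at 1.24 and Tubb6 at 1.67 in siGFP replicate 1.

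Each tubulin was lower relative to the rest of the library on chromatin than in the cytoplasm of control cells, in contrast to Atat1, though not each passed the test. Of the 10 genes, 1 (Atat1) was called higher on chromatin, 6 were called lower and 3 were not called. Of all genes 66% were called, 57.9% higher and 8.08% lower. The genes called lower were Tuba1a, Tuba1b, Tuba1c, Tubb2b, Tubb3 and Tubb4b. The 9 tubulins had a median log2 difference of -1.06, whereas the median over all genes tested was 0.95.

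The number of calls depends on the scaling, whereas the direction of these 10 genes does not. TPM holds the total of each library constant, and scaling by median ratios lowered the all-gene median of chromatin against cytoplasm by 0.61. The calls over all genes were 11942 higher and 1665 lower as deposited and 8025 higher and 4501 lower after that scaling, under which all 9 tubulins were called lower, with a median of -2.12, and Atat1 still higher. With the replicate block 7 tubulins were called lower, Tubb5 being added (limma adjusted p = 0.00273). Of all genes 76.9% were called with the block, 65.4% higher and 11.5% lower.

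Among the alpha-tubulins, Tuba1b, a broadly expressed gene with the highest siGFP mean of the 10 in each fraction, was at 1673, 551 and 778 TPM on siGFP chromatin, against 3086, 2453 and 2641 TPM in siGFP cytoplasm. The fractions did not overlap, and chromatin replicate 1 stood well above the other two. The log2 difference was -1.60 (SE 0.49, limma adjusted p = 0.00653). Tuba1c, also broadly expressed, differed by -1.48 (SE 0.47, adjusted p = 0.00847). Tuba1a, a major alpha-tubulin of developing neurons, differed by -1.07 (SE 0.38, adjusted p = 0.0176), with 829.6, 319 and 312 TPM on siGFP chromatin and 953, 951 and 841 TPM in siGFP cytoplasm.

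Of the beta-tubulins, Tubb2b, known from developing brain, was at 152, 68.1 and 79.0 TPM on siGFP chromatin and 186, 222 and 183 TPM in siGFP cytoplasm (log2 difference -1.06, SE 0.32, limma adjusted p = 0.00702). Tubb3, the beta-tubulin widely used as a neuronal marker, was at 135, 43.0 and 83.0 TPM on siGFP chromatin and 181, 163 and 202 TPM in siGFP cytoplasm (-1.20, SE 0.42, adjusted p = 0.0160). Tubb4b, a beta-tubulin of cilia among other places, was at 909, 339 and 573 TPM on chromatin and 1136, 1019 and 1120 in cytoplasm (-0.96, SE 0.41, adjusted p = 0.0431). For these 3 genes the fractions did not overlap, and chromatin replicate 1 was again the nearest to the cytoplasm. The Tubb4b call was lost in 7 of the alternatives, which are given with the limits below. Without siGFP chromatin replicate 2 the calls of Tuba1a (limma adjusted p = 0.0906), Tuba1c (0.0556) and Tubb3 (0.130) were lost too, and without siGFP chromatin replicate 3 that of Tuba1a (0.0921).

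Tubb5, the beta-tubulin with the highest TPM in these cells, was at 1356, 556 and 840 TPM on siGFP chromatin against 1455, 1527 and 1355 TPM in siGFP cytoplasm, and replicate 1 alone made the fractions overlap (-0.75, SE 0.34, limma adjusted p = 0.0584). Tubb2a was at 40.1, 13.45 and 18.2 TPM on chromatin and 32.3, 30.8 and 27.6 TPM in cytoplasm (-0.47, SE 0.39, adjusted p = 0.300). Tubb6 was at 198, 47.1 and 57.4 TPM on chromatin and 119, 123 and 103 TPM in cytoplasm (-0.49, SE 0.53, adjusted p = 0.430). For Tubb2a and Tubb6 chromatin replicate 1 was above every cytoplasmic library and replicates 2 and 3 below every one. Without the replicate 1 libraries of all groups all 9 tubulins were called lower on chromatin.

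The replicate 1 chromatin libraries stood apart for the tubulins as a group. The summed TPM of the 9 tubulins on chromatin was 4682, 1770 and 2685 in siPTBP1, 5006, 1772 and 2682 in the double knockdown and 5569, 2032 and 2863 in siGFP, for replicates 1 to 3. Replicate 1 was the highest under each treatment and replicate 2 the lowest. The share of TPM in the 1659 other genes that were called lower on chromatin was 18.1% to 24.4% in the replicate 1 chromatin libraries and 12.7% to 16.2% in the other chromatin libraries, against 47.0% to 52.4% in the cytoplasm. The part of that difference in the tubulin values was not tested.

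**Figure D3:**
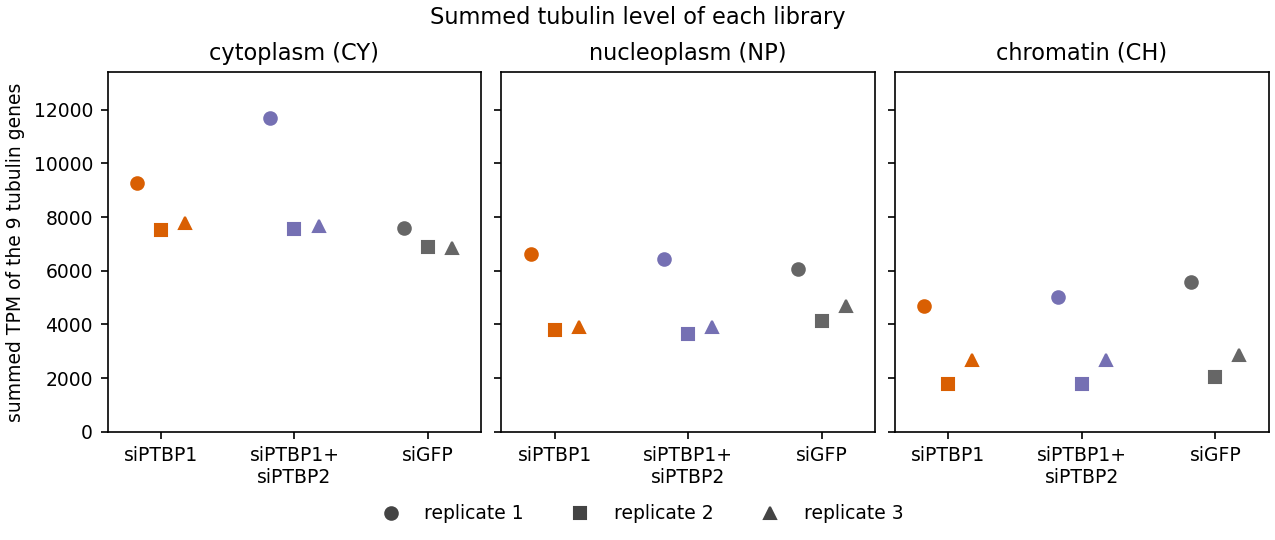
Summed TPM of the 9 tubulin genes in each library (vertical axis from 0, shared by the panels) by fraction and treatment, with markers for replicate number. The sum is 6855 to 11685 TPM in the cytoplasm and 1770 to 5569 TPM on chromatin, and the replicate 1 libraries are the highest of each group.

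The nucleoplasm gave fewer calls. Against the cytoplasm of siGFP cells, 0 of the 10 genes were called with limma, where 12.8% of all genes were called, and 0 had an unadjusted p under 0.05, against 4664 of the 20611 genes. With the replicate block Atat1 was called higher and Tuba1b (-0.82, adjusted p = 0.00705), Tuba1c (-0.66, 0.0321) and Tubb3 (-0.75, 0.0227) lower, 4 of 10, against 28.3% of all genes. Chromatin against nucleoplasm gave Atat1 higher and Tuba1a lower (-1.08, SE 0.38, limma adjusted p = 0.0218), 2 of 10, against 51.5% of all genes. With the block that count was 6 of 10, Tuba1b, Tuba1c, Tubb2a and Tubb2b being added as lower, against 67% of all genes. The all-gene median was 0.15 for nucleoplasm against cytoplasm and 0.68 for chromatin against nucleoplasm, and median-ratio scaling lowered these by 0.15 and 0.46. The tubulin median was -0.54 for nucleoplasm against cytoplasm and -0.95 after that scaling, under which 0 of 9 tubulins were above 0 in place of 3 (Tubb6 at -0.32 in place of 0.09). For chromatin against nucleoplasm it was -0.58, and -1.23 after scaling.

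No tubulin passed the test on knockdown in any fraction. In the cytoplasm 1 of the 10 genes (Atat1) was called in siPTBP1 and 1 in the double knockdown, against 0.228% and 0.243% of all genes, and the same counts held with the replicate block, against 1.83% and 2.65%. In the nucleoplasm 0 of 10 were called by limma in each knockdown, against 0.16% and 0.155% of all genes. There 1 of the 10 (Atat1) had an unadjusted p under 0.05 in each, as did 1006 and 1081 of the 20611 genes. With the block 0 and 1 were called, against 1.88% and 1.84%. On chromatin limma called 0 of 10 with or without the block. Of all genes 0.398% and 0.427% were called there without the block and 2.45% and 2.12% with it. Without the block 0 of 10 had an unadjusted p under 0.05, against 1371 and 1431 of the 20611 genes. With it only Tubb2a did, at a limma p of 0.00983 in siPTBP1 and 0.0160 in the double knockdown (adjusted p = 0.156 and 0.212). The share of all genes with an unadjusted p under 0.05 with the block was not counted.

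Tubb5 and Tubb6 stood higher in cytoplasmic TPM in every knockdown library without passing the test. Tubb5 (chr17:35833921-35838306, mm10, minus strand), whose end lies 59289 bases from Atat1, was at 2131, 1937 and 1764 TPM in siPTBP1 and 2353, 1951 and 1796 TPM in the double knockdown, against 1455, 1527 and 1355 TPM in siGFP. The groups did not overlap. The log2 difference was 0.42 for siPTBP1 (95% interval -0.28 to 1.13) and 0.48 for the double knockdown (-0.22 to 1.19), each with a limma adjusted p of 1, and 0.444 and 0.284 with the replicate block. The fold over siGFP of the same number was 1.46, 1.27 and 1.30 in siPTBP1 and 1.62, 1.28 and 1.33 in the double knockdown.

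Tubb6, a beta-tubulin expressed at low levels in many tissues, was at 203, 167 and 166 TPM in siPTBP1 cytoplasm and 172, 153 and 152 TPM in double knockdown cytoplasm, against 119, 123 and 103 TPM in siGFP cytoplasm. Again no knockdown library overlapped with siGFP. The log2 difference was 0.63 (95% interval -0.47 to 1.74) and 0.47 (-0.64 to 1.57), each with a limma adjusted p of 1, and 0.488 and 0.629 with the block. Under median-ratio scaling the differences were 0.23 and 0.49 for Tubb5 and 0.44 and 0.48 for Tubb6. The genes of the 10 with no overlap and a higher knockdown were Atat1, Tubb5 and Tubb6 in each comparison, 3 of 10. Of all genes 9.17% met this for siPTBP1 and 6.91% for the double knockdown. The 10 genes were chosen by values of these same libraries and the knockdowns share their siGFP libraries, so that count is a description with no test. On chromatin Tubb5 and Tubb6 overlapped among the treatments.

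On chromatin, 6 of 9 tubulins were below siGFP in all 3 replicate numbers in siPTBP1 (Tuba1a, Tuba1b, Tubb2a, Tubb2b, Tubb3 and Tubb4b), against 11.8% of all genes, and 8 of 9 in the double knockdown (these, Tuba1c and Tubb6), against 13.7%. Tubb2a, for example, was at 0.578, 0.756 and 0.580 times siGFP of the same number in siPTBP1 and 0.644, 0.711 and 0.615 times in the double knockdown. In the nucleoplasm the count was 3 of 9 in siPTBP1 (Tubb2a, Tubb2b and Tubb3) and 5 of 9 in the double knockdown (these, Tubb4b and Tubb6), against 25.3% of all genes in each. The members of a library share its total, the knockdowns share their siGFP libraries, and these counts have no test. The 1659 other genes called lower on chromatin took 24.4%, 13.3% and 16.2% of the chromatin TPM in siPTBP1 replicates 1 to 3. Their share was 18.1%, 12.7% and 15.1% in the double knockdown and 20.3%, 15.5% and 16.1% in siGFP. It was thus below siGFP in every number in the double knockdown, and only in replicate 2 in siPTBP1. The part of that share in the tubulin counts was not tested.

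The other tubulins overlapped with siGFP in the cytoplasm. Tuba1b was at 3620, 2630 and 2930 TPM in siPTBP1 and 5166, 2662 and 2841 TPM in the double knockdown, against 3086, 2453 and 2641 TPM in siGFP. Double knockdown replicate 1 was the library with the highest tubulin sum of the 27, 11685 TPM. Tubb3 was at 194, 177 and 189 TPM in siPTBP1 and 283, 187 and 205 TPM in the double knockdown, against 181, 163 and 202 TPM in siGFP. The median log2 difference of the 9 tubulins in the cytoplasm was 0.09 for siPTBP1 and 0.29 for the double knockdown, beside all-gene medians of 0.06 and 0. Under median-ratio scaling the median for siPTBP1 was -0.10, with 3 of 9 tubulins above 0, so its sign depends on the scaling, and that for the double knockdown was 0.30.

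**Figure D4:**
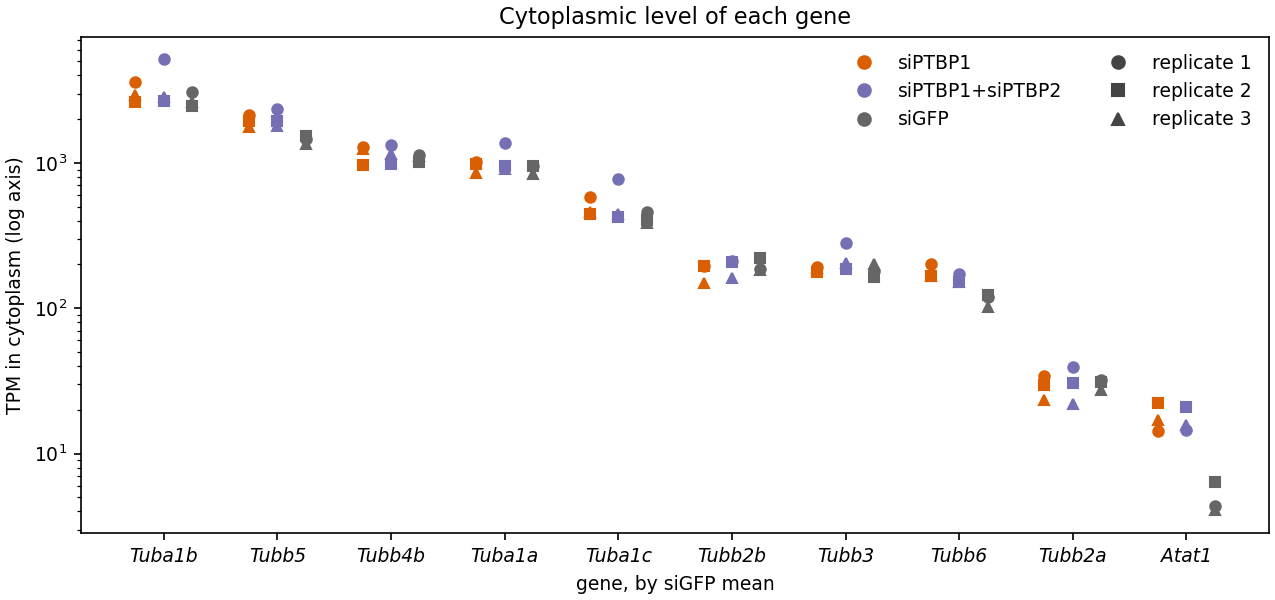
Cytoplasmic level in TPM (log axis) of the 10 genes, ordered by their siGFP mean, coloured by treatment and marked by replicate number. Tubb5, Tubb6 and Atat1 are the genes whose knockdown libraries all lie above the siGFP libraries, by 1.27 to 1.62 times for Tubb5 and 3.29 to 4.16 times for Atat1 within a replicate number.

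The order of the levels in siGFP cytoplasm was Tuba1b, Tubb5, Tubb4b, Tuba1a, Tuba1c, Tubb2b, Tubb3, Tubb6, Tubb2a and Atat1, from 2727 ± 325 TPM to 4.92 ± 1.26 TPM (SD, n = 3). Neighbours in that order did not overlap, apart from Tubb2b at 197 ± 21.5 TPM and Tubb3 at 182 ± 19.8 TPM. On siGFP chromatin the spread was larger and most neighbours overlapped. Atat1 there, at 50.3 TPM, stood above Tubb2a, at 23.9 ± 14.2 TPM, without overlap.

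Tuba1b made up 67.8% of the TPM of the 3 alpha-tubulin genes in siPTBP1 cytoplasm, 68.1% in the double knockdown and 67.1% in siGFP. Tubb5 made up 52.7%, 55.8% and 49.9% of the TPM of the 6 beta-tubulin genes in siPTBP1 cytoplasm and 53.7%, 55.5% and 51.6% in the double knockdown, against 46.8%, 49.5% and 45.3% in siGFP. Every knockdown library was above every siGFP library in that share. The share of Tubb4b averaged 31.6% in siPTBP1, 30.4% in the double knockdown and 35.7% in siGFP. The summed alpha-tubulin TPM was 1.22, 1.34 and 1.32 times the beta-tubulin sum in the cytoplasm of the same 3 groups and 0.817, 0.820 and 0.878 times on chromatin. By library the cytoplasmic ratio was 1.29, 1.17 and 1.20 in siPTBP1 and 1.67, 1.15 and 1.20 in the double knockdown, against 1.45, 1.23 and 1.29 in siGFP. The double knockdown mean was set by replicate 1, and its other libraries lay below every siGFP library.

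Within a replicate number the chromatin to cytoplasm ratio of the tubulins was below that of siGFP in each knockdown for 9 of 9 genes in all 3 numbers. The share of all genes with this order of ratios was not counted, so whether 9 of 9 is unusual cannot be told. The ratio in siPTBP1 was 0.444 to 0.946 of that in siGFP, and in the double knockdown 0.532 to 0.887. For Tubb5 the ratio was 0.597, 0.304 and 0.474 in siPTBP1 and 0.577, 0.299 and 0.503 in the double knockdown, against 0.932, 0.364 and 0.620 in siGFP. The treatments overlapped when the numbers were ignored, the genes of a library share its total, and no tubulin passed the test of the change in this difference with or without the block. The median change of the 9 tubulins was -0.43 for siPTBP1 and -0.53 for the double knockdown on the log2 scale, beside -0.0015 and 0.07 over all genes, and all 9 were below 0 under median-ratio scaling too.

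**Figure D5:**
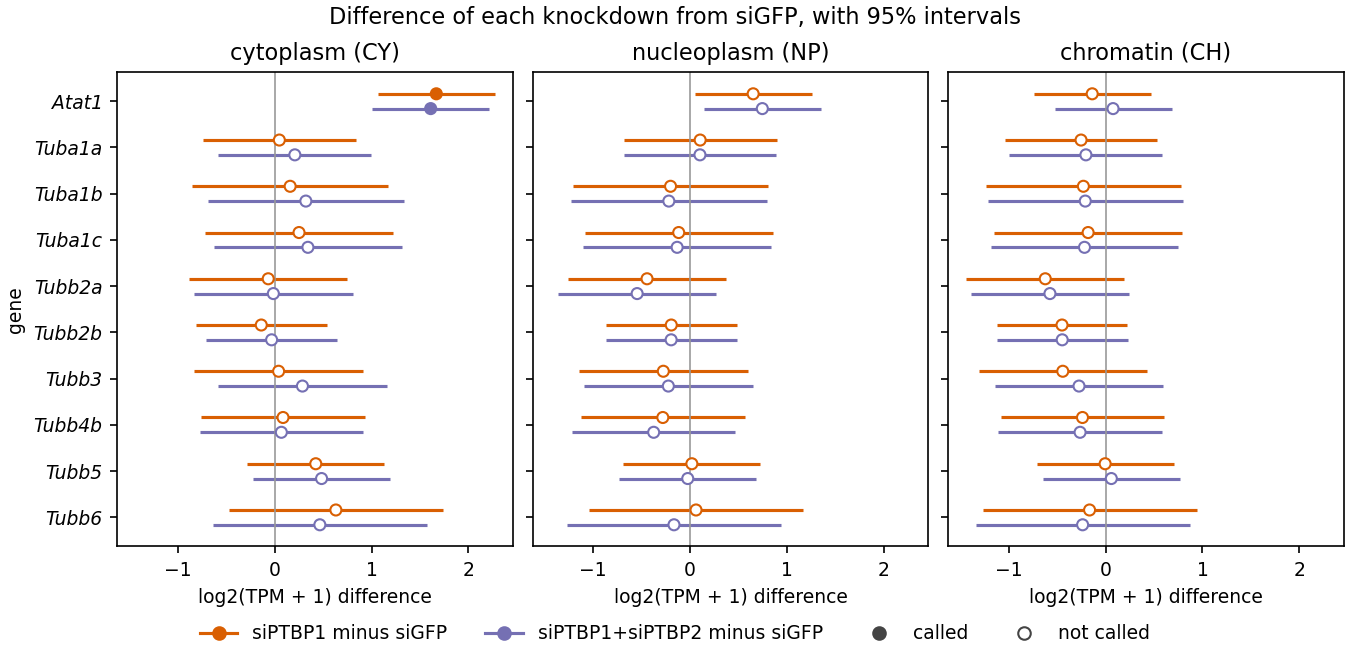
Difference of each knockdown from siGFP on the log2(TPM + 1) scale in the 3 fractions, with lines for the 95% interval. Points are filled where the limma adjusted p was under 0.05 and open otherwise. Intervals and calls are those of the fit without the replicate block. Atat1 in the cytoplasm, at 1.67 and 1.61, is filled, and all tubulin intervals of that fit include 0.

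Adding siRNA against Ptbp2 to that against Ptbp1 gave no call among the 10 genes. Without the block no gene at all was called in the cytoplasm, the targeted Ptbp2 included. Ptbp2 averaged 5.43 ± 3.45 TPM in double knockdown cytoplasm and 13.9 ± 8.99 TPM in siPTBP1 cytoplasm. The comparison therefore cannot show that the added siRNA left the 10 genes unchanged. Between the double knockdown and siPTBP1 0 of 10 were called with limma without the block in each fraction. Of all genes 0% were so called in the cytoplasm, 0.00485% in the nucleoplasm and 0.107% on chromatin. With the block 0 of 10 were called. Over all genes the block called 1 lower in the cytoplasm, 1 lower in the nucleoplasm, and 9 higher and 8 lower on chromatin. In each fraction 0 of the 10 had an unadjusted p under 0.05. In the cytoplasm 147 genes in all had an unadjusted p under 0.05. The Atat1 difference was -0.06 in the cytoplasm (95% interval -0.66 to 0.55), 0.09 in the nucleoplasm (-0.51 to 0.70) and 0.22 on chromatin (-0.39 to 0.82).

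The remaining tubulin genes of the table gave no call on knockdown. Of 11 (Tuba3a, Tuba3b, Tuba4a, Tuba8, Tubal3, Tubb1, Tubb4a, Tubg1, Tubg2, Tubd1 and Tube1), 8 could be tested, and 0 were called in either knockdown in any fraction, with or without the block. Tuba8, Tubal3 and Tubb1 were too low to be tested. Tuba4a averaged 290 ± 38.1 TPM in siPTBP1 cytoplasm and 309.9 ± 19.0 TPM in siGFP cytoplasm, and gamma-tubulin Tubg1, which nucleates microtubules, 116 ± 5.96 and 107 ± 11.9 TPM. Between chromatin and cytoplasm of siGFP, 2 of the 8 were called higher and 2 lower, with a median of -0.36, and with the block 2 higher and 4 lower. Of all genes 57.9% were called higher and 8.08% lower in that comparison, and 65.4% and 11.5% with the block.

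Genes of tubulin folding and of the control of tubulin mRNA, 22 in all (the tubulin cofactors, the CCT chaperonin, prefoldin, Arl2 and Ttc5, the factor that recognises nascent tubulin), had 0 calls on knockdown without the block, where 0.155% to 0.427% of all genes were called in a comparison. With it, where 1.83% to 2.65% of all genes were called, Arl2, the small GTPase of the cofactor complex, was higher in double knockdown cytoplasm, at 76.8 ± 19.8 TPM against 52.4 ± 5.64 TPM in siGFP (limma adjusted p = 0.0202). Of 22 tested genes of tubulin modification other than Atat1, from a list of 25, 0 were called without the block. With it Tpgs1, a subunit of the tubulin polyglutamylase complex, was higher in the cytoplasm, at 60.9 ± 11.8 TPM in siPTBP1 and 72.1 ± 27.4 TPM in the double knockdown against 36.1 ± 3.80 TPM in siGFP (adjusted p = 0.0189 and 0.00229).

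Of 32 microtubule-associated proteins, 1 was called without the block, in a comparison that called 0.243% of all genes (2.65% with the block). Kif2c, a kinesin that depolymerises microtubules at the kinetochore, fell in double knockdown cytoplasm to 22.1 ± 9.75 TPM, against 56.0 ± 13.7 TPM in siGFP (log2 difference -1.37, SE 0.29, limma adjusted p = 0.0466). In siPTBP1 cytoplasm it averaged 26.95 ± 6.09 TPM (-1.02, adjusted p = 0.306), and with the block it was lower in the cytoplasm and nucleoplasm of both knockdowns. Of 9 genes of the gamma-tubulin ring complex 0 were called without the block, and with it Cdk5rap2, which recruits that complex to centrosomes, was lower in double knockdown cytoplasm (8.30 ± 3.59 TPM against 16.9 ± 5.42 TPM in siGFP, adjusted p = 0.00603) and nucleoplasm (adjusted p = 0.0266).

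The same lists were also compared between the fractions. In siGFP, chromatin against cytoplasm, 10 of 22 modification genes were called higher and 2 lower (median 0.59), 19 of 32 microtubule-associated proteins higher and 3 lower (0.94), 6 of 9 ring complex genes higher and 1 lower (1.74), and 3 of 22 folding genes higher and 9 lower (-0.66). With the block these counts were 13 higher and 3 lower, 24 and 4, 7 and 1, and 3 and 12 in the same order of lists. The folding genes were the list with more members lower than higher. The median over all genes was 0.95, and the shares of all genes are those given above for the other tubulins.

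The genes most like Atat1 over the 9 group means of log2(TPM + 1), among 13120 candidates, were Klc1, Dbn1 and Kif5a, each with a Pearson r of 0.988, a description with no test. Klc1, a kinesin light chain, averaged 57.3 TPM in siPTBP1 cytoplasm and 52.3 in the double knockdown, against 21.8 TPM in siGFP cytoplasm and 158 TPM on siGFP chromatin. Dbn1, an actin-binding protein, averaged 30.7 and 33.8 TPM in the cytoplasm of the knockdowns, against 11.9 TPM in siGFP cytoplasm and 131 TPM on siGFP chromatin. Kif5a, a kinesin heavy chain, averaged 9.49 and 9.06 TPM, against 3.39 TPM in siGFP cytoplasm and 18.8 TPM on siGFP chromatin. Those most like Tubb3 were Chac1, Grhpr and Acot7, with r of 0.995 each. Grhpr, for example, averaged 73.7 TPM in siPTBP1 cytoplasm, 83.5 TPM in double knockdown cytoplasm and 71.5 TPM in siGFP cytoplasm, against 30.8 TPM on siGFP chromatin.

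Coordinates of the other genes are those of GENCODE M21 on mm10. Tuba1a is at chr15:98949837-98953703 and Tuba1b at chr15:98931425-98934565 on the minus strand, and Tuba1c at chr15:99029891-99038110 on the plus strand. Tubb2a is at chr13:34074274-34078007 and Tubb2b at chr13:34126748-34130466, on the minus strand, Tubb3 at chr8:123411424-123422015 on the plus strand and Tubb4b at chr2:25222160-25224702 on the minus strand. Tubb3 overlaps Gm20388 on its own strand, listed at 0.42 to 29.8 TPM, and Tuba1a and Tuba1b overlap Gm49450, which was not used here. Atat1 overlaps the antisense gene Gm16279, at 0.02 to 1.45 TPM, and Tubb4b overlaps Fam166a on the other strand, at 0 to 1.02 TPM. The libraries were stranded, and the authors' use of strand in counting is not stated in these sources.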

How the data were processed

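The deposited table holds TPM per gene, computed by the authors from stranded poly(A)-selected libraries; STAR and kallisto on mm10 are named in the submitters' processing notes, with no versions or roles. Which annotation release the table rests on is not stated in these sources. Coordinates, transcripts and sequences came from GENCODE M21 (GRCm38, the assembly of mm10), which held 53274 of the 53379 gene IDs. TPM keeps no depth, so the precision of counting is unknown.

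Genes with at least 1 TPM in at least 3 libraries (20611) were fitted with limma 3.58.1 (R 4.3.3, trend and robust, two-sided) to the log2 of TPM plus a pseudocount of 1, with 9 group means (residual df 18). A gene is called where its adjusted p (Benjamini-Hochberg) was under 0.05. The procedure was tested on simulated data. The members, the gene lists and the tests were chosen with earlier results of these data known. Named were all 10 members, up to 4 called genes of each list, and the 3 genes most like Atat1 and most like Tubb3.

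Whether replicate numbers pair the libraries was checked from their deviations from the group means. Over 108 same-number pairs the correlation was at least 0.130 (median 0.365), against a median of -0.213 for libraries sharing neither number nor group, and 27 of 27 libraries correlated best with one of their own number. The pairing is read from these data, because no label explains the numbers. The fit with the number as a block has a residual df of 16. Alternatives were a pseudocount of 0.1, no filter, median-ratio scaling, a fit of the compared fractions only, leaving out each library, and leaving out replicate 1 throughout, the last chosen after seeing the data.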

Additional observations from a re-analysis of the deposited data

Results flagged for a closer look

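The effect of knockdown on Atat1 differed between chromatin and cytoplasm by the test of that difference in the fit with the replicate block. The change of the chromatin minus cytoplasm difference was -1.81 for siPTBP1 (limma adjusted p = 0.00105 with the block and 0.217 without) and -1.53 for the double knockdown (0.00302 with the block and 0.442 without), in log2 units. The 2 comparisons share their siGFP libraries, and each knockdown showed the direction in 3 of 3 replicate numbers.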

How the results depend on the processing

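Of the log2 differences of single genes under the alternatives, 2078 were the same as in the reported fit, 32 newly passed the threshold, 26 no longer did, 24 moved by more than the replicate spread under median-ratio scaling, and no called value reversed. With the replicate block, the count of the 10 genes called was 1 (Atat1) in place of 0 for the double knockdown in the nucleoplasm and for each knockdown's change of the chromatin to cytoplasm difference, 4 in place of 0 for nucleoplasm against cytoplasm, and 6 in place of 2 for chromatin against nucleoplasm; among the 10 genes the block changed no other call except that of Tubb5 on chromatin against cytoplasm. Over all genes the block gave 377 calls against 47 (siPTBP1) and 547 against 50 (double knockdown) in the cytoplasm, 388 against 33 and 379 against 32 in the nucleoplasm, and 505 against 82 and 436 against 88 on chromatin. It gave 5830 against 2638 for nucleoplasm against cytoplasm, and 40 against 9 and 79 against 12 for the changes of the chromatin to cytoplasm difference. The chromatin counts over all genes were also 391 and 384 without the filter, 32 and 28 with a pseudocount of 0.1, 46 and 40 with median-ratio scaling, and 8 and 2 in a fit of the chromatin libraries alone. A fit of the cytoplasmic libraries alone called 0 of the 10 for each knockdown, and 12 and 10 of all genes; that fit has fewer samples. Median-ratio scaling gave 4 for chromatin against nucleoplasm. Without the replicate 1 libraries the counts were 0 for each knockdown in the cytoplasm, 2 for nucleoplasm against cytoplasm and 7 for chromatin against nucleoplasm. Leaving out a library at a time gave 0 to 1 for each knockdown in the cytoplasm, 3 to 8 for chromatin against cytoplasm (3 without siGFP chromatin replicate 2) and 1 to 6 for chromatin against nucleoplasm (6 without siGFP chromatin replicate 1, and 1 without siGFP chromatin replicate 2 or 3 or nucleoplasm replicate 1 or 2). Over all genes, leaving out a library at a time gave 22 to 39 and 21 to 51 calls for siPTBP1 and the double knockdown in the cytoplasm, 17 to 35 and 19 to 29 in the nucleoplasm, and 60 to 182 and 49 to 173 on chromatin. The causes of the other changes were not tested. The Tubb4b call on chromatin was lost without the filter (limma adjusted p = 0.0631), in the fit of 2 fractions (0.0535), and without siGFP chromatin replicate 2 or 3 or any siGFP cytoplasmic library (0.0652 to 0.240), and those of Tuba1a, Tuba1c and Tubb3 without siGFP chromatin replicate 2 (0.0556 to 0.130), that of Tuba1a also without replicate 3 (0.0921). Depth is unknown, so low values such as those of Atat1 in siGFP cytoplasm carry a counting error that cannot be given.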
